A study of Mus musculus with 6 samples.

Results

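Cytosolic ribosomal proteins were followed in 6 mouse arrays as the genes whose symbol begins with Rpl or Rps and a digit, or is Rplp0, Rplp1 or Rplp2, leaving out pseudogenes marked -ps and the Rps6k kinases. The rule found 49 of the 18193 genes that the array annotation names alone on a probe set, and of several probe sets the one with the highest mean stood for the gene. They were 22 proteins of the large subunit, 20 of the small subunit and 7 paralogs or genes of similar name. Per the labels, 3 arrays held RNA of Sp3 knockout fetuses and 3 held RNA of wildtype fetuses, each from a single heart at E12.5, lettered a to c. Strain, sex, the knockout allele and litter are not given in the sources used here. Each array was taken as 1 replicate, and their number limits the precision of every value.

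Ribosomes translate messenger RNA, and each carries a set of about equally abundant proteins on the RNA of a large and a small subunit. Messages of these proteins begin with a run of pyrimidines, the 5 prime TOP motif, through which their translation follows growth signals, and their promoters are short and rich in GC. Sp3, like its relative Sp1, is a zinc finger protein that activates or represses genes from GC boxes. Loss of a single copy of several of these genes causes Diamond-Blackfan anemia, in which red cell precursors fail.

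The probe set of Sp3 checked the labels. Its log2 intensity was 8.39, 8.34 and 8.61 on knockout arrays a to c, against 9.87, 9.77 and 9.54 on wildtype arrays a to c. The groups did not overlap, and the difference, -1.27 on the log2 scale, had an adjusted p of 0.002538 (limma). Where the probe set lies relative to the deleted part of the gene was not examined here. The tissue label was checked against marker lists, and the markers went against it. The median level of the 11 measured hepatocyte genes of 13 stood at the 97.4th percentile of all genes and that of the 11 measured erythroid genes of 14 at the 98.7th, while the 16 cardiomyocyte genes stood at the 36.3th. Myh6, a cardiac myosin heavy chain, averaged 1.92 on the log2 scale, Nkx2-5, a cardiac transcription factor, 3.47, and Alb, serum albumin, 13.25. The lists were not uniform. Myh6 was the dimmest cardiomyocyte gene, and the brightest, Actc1, averaged 8.15, at the 79.5th percentile. Hba-a1 of the erythroid list averaged 2.65, at the 20.1th percentile. The samples are therefore called arrays labelled heart. In such bulk RNA, fewer cells of a type and less RNA per cell cannot be told apart.

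Ribosomal protein messages were among the brightest on the array. Of the 49 genes, 34 lay in the brightest 1% of genes, which held 182 genes at or above a log2 intensity of 11.73, and 3 lay below the median gene. The median level of the 49 genes was 12.95, 12.97 and 13.00 on knockout arrays a to c, against 12.98, 12.91 and 12.98 on wildtype arrays a to c. That placed the median member between the 99.78th and the 99.82th percentile of genes on every array. The highest log2 intensity of any probe set was between 13.60 and 13.66 per array, so most members lay within about 1 log2 unit of the top of the scale. Whether differences are compressed there was not tested. Intensities of different probe sets depend on their probes, so the order of genes by level is not an order of message abundance.

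The subunits were read at like intensities. The median level was 13.01 over the 22 large subunit genes and 13.03 over the 20 small subunit genes. The brightest were Rps3a1 at 13.42, Rpl7a at 13.39, Rpl38 at 13.39 and Rpl35 at 13.37, means over 6 arrays, and Rps3a1, a small subunit protein, ranged only from 13.36 to 13.49 over the arrays. Of the 42 subunit genes, 33 lay at or above 12 and none between 11 and 12. The other 9 lay far lower: Rps6, Rpl14, Rps25, Rpl37, Rpl12, Rpl39, Rpl27a, Rps27 and Rps16. All 9 also had probe sets that the annotation shares with other genes. In all, 110 probe sets were annotated to a member together with other genes, against 104 annotated to 1 member, and 78 of the shared ones averaged 11 or more. A low value of such a gene describes 1 probe set, and the level of the message cannot be read from it alone.

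**Figure D1:**
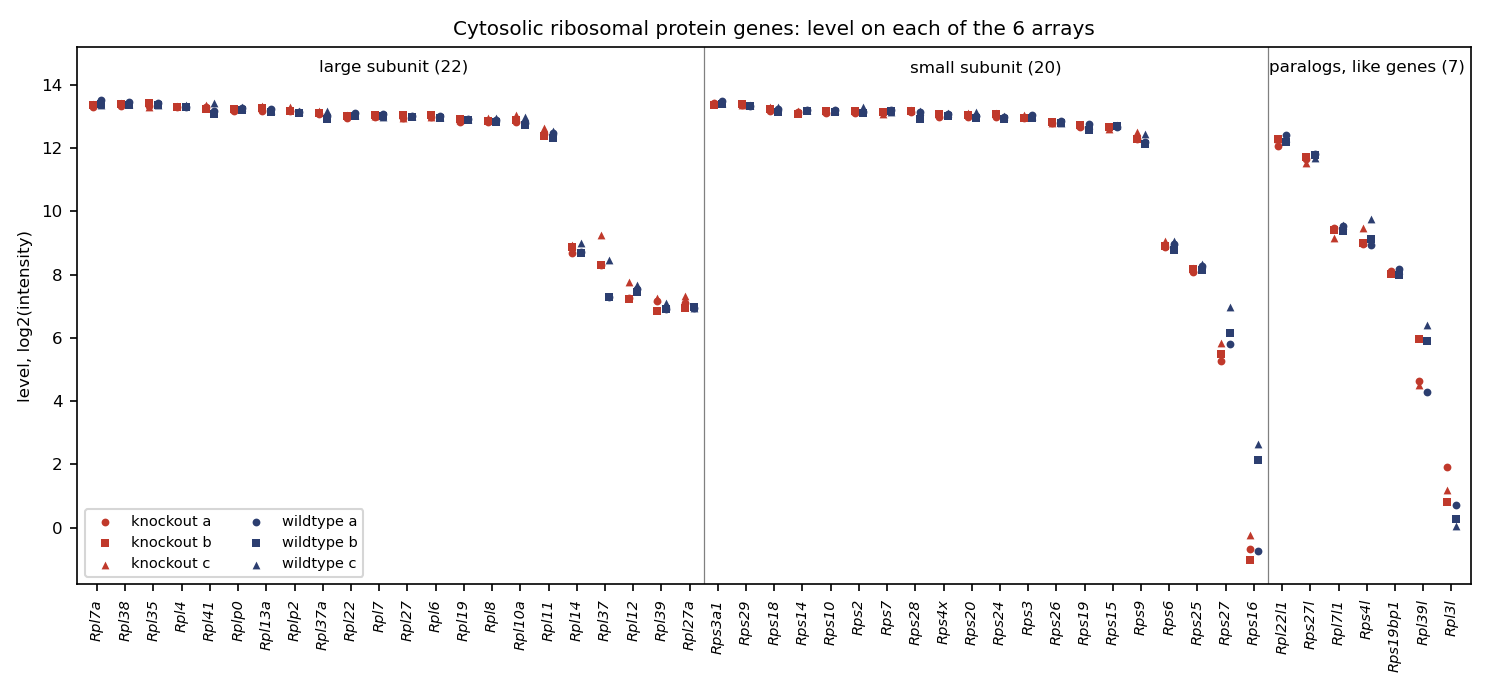
Log2 intensity of each of the 49 genes on each of the 6 arrays, with large subunit, small subunit and paralogs or like genes side by side. Red symbols are knockout and blue symbols wildtype arrays, with circle, square and triangle for the letters a, b and c. Of the 42 subunit genes, 33 lie at or above 12, and the spread between arrays grows toward the dim probe sets, such as Rps16 and Rpl3l.

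No ribosomal protein gene was called between the genotypes. None of the 49 passed limma's test at an adjusted p under 0.05, in which 9 of 18193 genes (0.0495%) and 14 of 45037 probe sets (0.0311%) passed, and the smallest adjusted p of a member was 0.6608. At an unadjusted p under 0.05 the count was 1, Rps27, or 2.04%, against 8.71% of all genes. Rps27 was lower in knockout, where the background is 5.51%, and no member was higher, where it is 3.2%. The fit without the variance trend called 0 of 45037 probe sets (0%), so its count of 0 members says nothing about them. Knockout and wildtype arrays did not overlap in 2 members, or 4.08%, against 15.1% of all genes. Both were higher in knockout, where the background is 6.02%, and none was lower, where it is 9.04%. The difference of means was above 0 in 20 and below 0 in 29 members, where 47.5% of all genes lay above 0. Of the members 37 lay within 0.1 of 0. The median difference was -0.011 on the log2 scale, beside -0.020 over all genes. Under median centring of the arrays, which shifts the median of all genes to -0.097, the split became 9 above and 40 below 0, and after quantile normalization it became 26 above and 23 below.

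The precision is set by the 33 bright subunit genes. Their differences ran from -0.063 to 0.11 on the log2 scale, that is from 0.957-fold to 1.08-fold in knockout over wildtype. All 33 of the 95% intervals spanned 0, with bounds between 0.879-fold and 1.23-fold. The half-width of an interval was at most 0.19 on the log2 scale, in Rps9. These bounds rest on the variance trend of the fit. Without the trend, limma's unadjusted p of Rps9 was 0.5613 instead of 0.2532 at the same difference, so the interval of that fit is wider. The 106 other genes at or above 12 had a median difference of -0.064, with 30 above and 76 below 0. In them 1 gene was higher without overlap and 14 were lower, where the bright subunit genes had 1 higher and 0 lower. Over all 140 genes at or above 12, members included, 1.43% were higher and 10% lower without overlap, and 31.4% had a difference above 0, against 14 of the 33. The median residual SD was 0.049 for the bright subunit genes and 0.080 for those other bright genes.

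**Figure D2:**
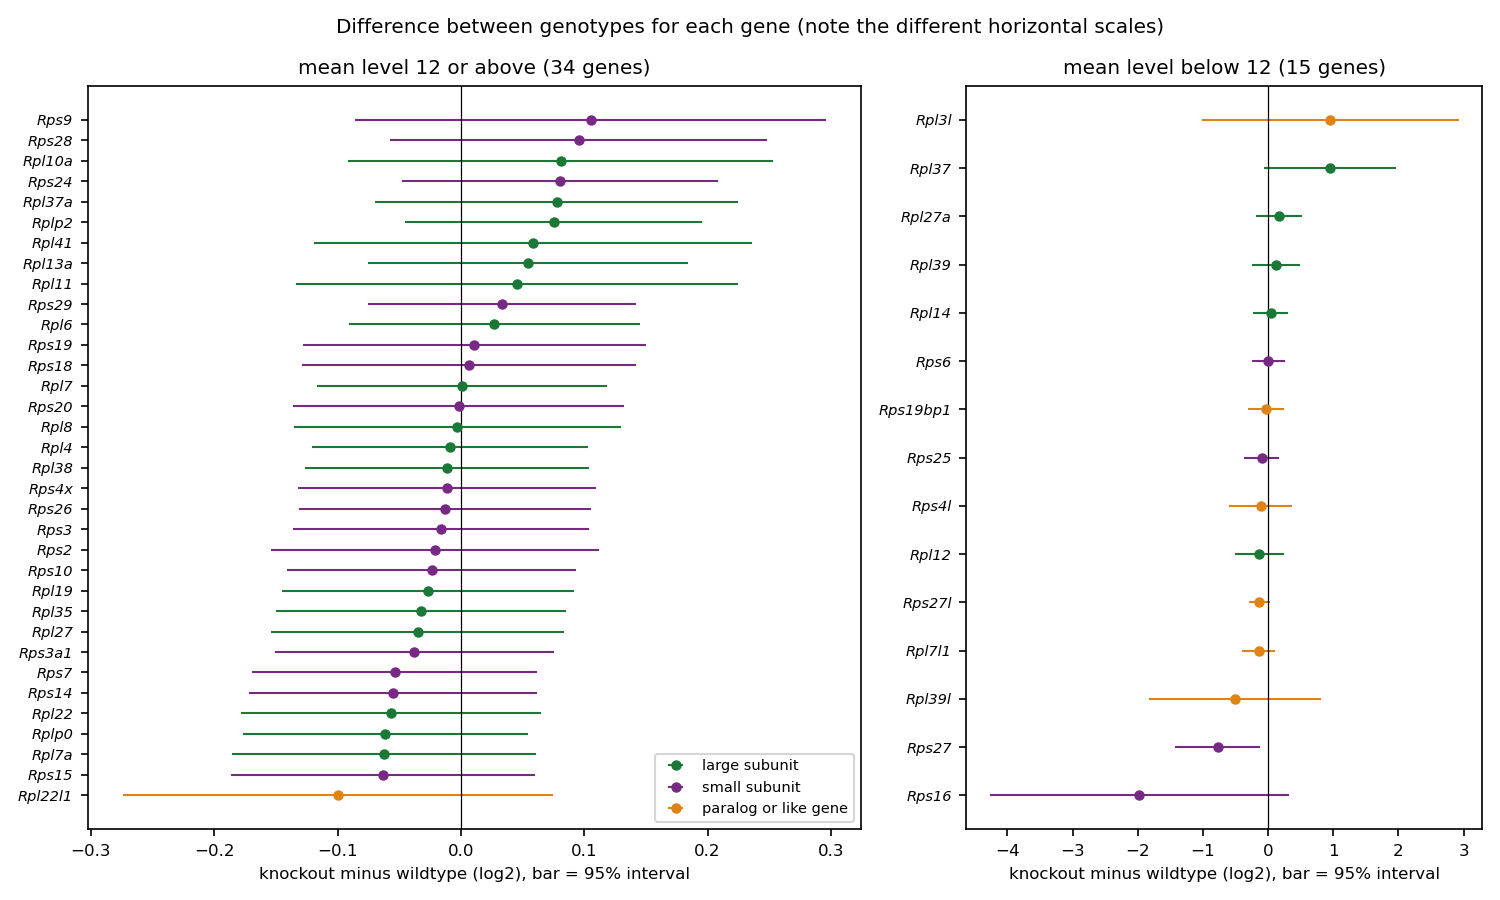
Difference in mean log2 intensity, knockout minus wildtype, of each of the 49 genes, with the 95% interval of the limma fit as a bar. The left panel holds the 34 genes at or above 12 and the right panel the 15 below, on a wider axis. In the left panel every interval spans 0, and in the right panel only that of Rps27 does not.

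The medians of both subunits lay close to 0. The median difference was 0.014 over the large subunit, with 12 genes above and 10 below 0, and -0.014 over the small subunit, with 7 above and 13 below. Under median centring both medians were negative, -0.062 and -0.091. Under quantile normalization they were 0.021 and -0.010. Median centring subtracts 1 constant per array, so it moved both medians alike and left the distance between the subunits unchanged. Quantile normalization moved each median by less than that distance.

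The stalk of the large subunit, which recruits translation factors, is built of Rplp0 with copies of Rplp1 and Rplp2. Rplp1 was on shared probe sets only. Rplp2 was at 13.18, 13.18 and 13.30 on knockout arrays a to c, against 13.13, 13.12 and 13.18 on wildtype arrays a to c. Every knockout array lay above every wildtype array, by a difference of 0.075 with an interval of -0.045 to 0.20 (limma adjusted p = 0.7825). Under median centring its difference was -0.00073. Rplp0 was at 13.16, 13.23 and 13.23 on the knockout arrays, against 13.27, 13.22 and 13.31 on the wildtype arrays, so the groups overlapped. Its difference was -0.061 with an interval of -0.18 to 0.054. The 2 stalk proteins thus lay on opposite sides of 0, each by less than its interval. Rpl11, which with Rpl5 and the 5S RNA forms a particle that can hold back the p53 ligase Mdm2, differed by 0.045 with an interval of -0.13 to 0.23. Rpl5 was on shared probe sets only.

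Rps24, Rps28 and Rps9 of the small subunit had among the largest positive differences of the bright genes as deposited. Under median centring these differences were 0.0041, 0.019 and 0.029. Rps24, a protein of the small subunit whose gene is mutated in some families with Diamond-Blackfan anemia, was at 12.99, 13.07 and 13.11 on the knockout arrays, against 12.98, 12.91 and 13.03 on the wildtype arrays. The difference was 0.080 with an interval of -0.048 to 0.21. All 6 probe sets of Rps24 differed in the same direction, 1 of them without overlap, but they read 1 gene and are not replicates. Rps28 was at 13.13, 13.19 and 13.20 on the knockout arrays, against 13.13, 12.92 and 13.19 on the wildtype arrays. Wildtype b alone lay low, and the difference was 0.095 with an interval of -0.058 to 0.25. The 3 probe sets of Rps28 differed by 0.081 to 0.12. Rps9, a small subunit protein that binds its ribosomal RNA early in assembly, averaged 12.36 ± 0.12 over the 3 knockout arrays and 12.25 ± 0.16 over the 3 wildtype arrays (SD), a difference of 0.11 with an interval of -0.085 to 0.30. The letter c was highest in both groups. Without probe sets of the suffixes _x_at and _s_at, which the array's maker gives to probes that can match other genes, Rps9 was represented by a dim probe set with a difference of -0.14.

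Other bright subunit genes were closer to 0 than Rps9. Rpl10a, a large subunit protein, and Rpl37a, a zinc finger protein of the large subunit, differed by 0.081 and 0.078. On the other side, Rps15 of the small subunit and Rpl7a of the large subunit differed by -0.063 each. Under median centring Rpl10a and Rpl37a differed by 0.0046 and 0.0017, and Rps15 and Rpl7a by -0.14 each. Rps15 was at 12.64, 12.68 and 12.61 on the knockout arrays, against 12.67, 12.71 and 12.74 on the wildtype arrays, and Rpl7a was at 13.31, 13.38 and 13.39 on the knockout arrays, against 13.51, 13.41 and 13.35 on the wildtype arrays. Both overlapped between groups. Rps4x, the X-linked small subunit protein, differed by -0.011 with an interval of -0.13 to 0.11, and Rpl7, a large subunit protein, by 0.00078 with an interval of -0.12 to 0.12.

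The promoters of these bright genes were read because Sp3 binds GC boxes and because messages of ribosomal proteins in general start at pyrimidines. The windows below are the RefSeq promoters of assembly GRCm38.p6, from 60 bases before to 20 bases after the annotated start, for the 3 genes at or above 11 with the smallest p in each direction and for Rpl7a, which has the longest pyrimidine run. Each reads 5′ to 3′ along the gene. Where a gene had several windows, the one with the longest pyrimidine run at the start is shown. Capitals mark a GC box, GGGCGG on either strand, or the run of at least 8 C or T that overlaps the 10 bases on either side of the start. Rps24 lies at chr14:24490618-24490697 on the plus strand, Rplp2 at chr7:141447591-141447670 on the plus strand, Rps28 at chr17:33824543-33824622 on the minus strand, and Rps27l at chr9:66946026-66946105 on the plus strand. Rpl22l1 lies at chr3:28805448-28805527, Rplp0 at chr5:115559407-115559486 and Rpl7a at chr2:26910747-26910826, all on the plus strand.
Rps24: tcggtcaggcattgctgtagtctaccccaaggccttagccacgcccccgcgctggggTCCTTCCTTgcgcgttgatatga
Rplp2: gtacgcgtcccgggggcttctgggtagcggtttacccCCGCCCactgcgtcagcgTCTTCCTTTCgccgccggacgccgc
Rps28: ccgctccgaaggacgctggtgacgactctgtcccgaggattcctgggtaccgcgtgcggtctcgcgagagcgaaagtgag
Rps27l: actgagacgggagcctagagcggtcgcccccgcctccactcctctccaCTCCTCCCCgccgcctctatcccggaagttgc
Rpl22l1: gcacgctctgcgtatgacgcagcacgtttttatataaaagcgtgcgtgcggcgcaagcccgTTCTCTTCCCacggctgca
Rplp0: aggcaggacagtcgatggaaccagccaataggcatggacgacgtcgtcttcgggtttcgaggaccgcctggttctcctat
Rpl7a: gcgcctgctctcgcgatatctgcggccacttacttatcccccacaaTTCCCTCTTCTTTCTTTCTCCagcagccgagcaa

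Rps24 shows a run of 9 pyrimidines at the start, Rplp2 a run of 10 behind a GC box, and Rpl7a a run of 21. Rps28 and Rplp0 have no run of that length there. Windows of 300 bases, from 250 before to 50 after the start, were in the table for 43 of the 49 members and for 27025 genes in all. A gene was counted when any of its windows held the motif. A GC box was found in 58.1% of the members with a window, 25 of 43, and in 38.2% of all genes with a window. It was in 70% of large subunit genes and in 41.2% of small subunit genes with a window. The ETS site CCGGAAG, searched on both strands like the others, was in 46.5% of these members and 9.93% of all these genes. The TATA box TATAAA was in 14% and 15.7%. A pyrimidine run at the start was in 46.5% and 15.8%. Motifs could overlap, and a match describes letters and not a bound site. The 17 members at or above 12 with a GC box had a median difference of -0.021, from -0.100 to 0.081, with 5 above and 12 below 0. The 12 without a GC box had a median of 0.017, from -0.063 to 0.11, with 7 above and 5 below. The ranges overlap, and the difference between these medians was not tested.

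The larger differences were all in dim probe sets. Rps27, a zinc finger protein of the small subunit and a Diamond-Blackfan anemia gene, was the member with the smallest p. Its 1 probe set read 5.27, 5.50 and 5.83 on knockout arrays a to c, against 5.80, 6.16 and 6.97 on wildtype arrays a to c. Knockout c lay above wildtype a, so the groups overlapped. The difference was -0.78 with an interval of -1.43 to -0.13 (limma adjusted p = 0.6608), and it was -0.45 without wildtype c. Rpl37 of the large subunit read 8.29, 8.32 and 9.25 on the knockout arrays, against 7.28, 7.29 and 8.46 on the wildtype arrays. The letter c was highest by about 1 log2 unit in both groups, and knockout a and b lay below wildtype c. The difference was 0.94 with an interval of -0.069 to 1.96 (limma adjusted p = 0.7128).

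Rps16 of the small subunit was the dimmest member, in the dimmest 10% of all probe sets. It read -0.67, -1.01 and -0.22 on the knockout arrays, against -0.74, 2.13 and 2.63 on the wildtype arrays, and wildtype a lay among the knockout arrays. Values so near the bottom of the scale give no exact size, and its interval ran from -4.27 to 0.32. Rpl27a and Rpl39, of the large subunit, averaged 7.04 each. They differed by 0.17, with an interval of -0.19 to 0.52, and by 0.12, with an interval of -0.25 to 0.49. Rpl39 is X-linked, as are Rpl10 and Rpl36a, both on shared probe sets only. The median residual SD of the 9 dim subunit genes was 0.17, against 0.049 for the 33 bright ones.

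Tissue paralogs can replace the common protein in particular cells, and of those measured Rpl22l1 and Rps27l gave bright probe sets. Rpl22l1, the paralog of Rpl22, was at 12.06, 12.29 and 12.30 on the knockout arrays, against 12.41, 12.21 and 12.33 on the wildtype arrays. Knockout a alone lay low, and the difference was -0.100 with an interval of -0.27 to 0.074. Rps27l, the paralog of Rps27 and a target of p53, was at 11.65, 11.71 and 11.53 on the knockout arrays, against 11.82, 11.78 and 11.70 on the wildtype arrays. The groups just overlapped, and the difference was -0.14 with an interval of -0.30 to 0.022 (limma adjusted p = 0.7275). Its other 2 probe sets differed by -0.19, without overlap, and by -0.20. On the first of these, knockout arrays read 11.46, 11.60 and 11.51 and wildtype arrays 11.76, 11.70 and 11.69 in the order of the letters. All 3 probe sets of Rps27l thus lay lower in knockout, and none passed the test. They read the same gene and are not replicates.

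Rpl3l, the paralog of Rpl3 found in heart and skeletal muscle, was among the dimmest probe sets of the array. It read 1.92, 0.82 and 1.18 on the knockout arrays, against 0.72, 0.27 and 0.065 on the wildtype arrays. The groups did not overlap, but the values lay in the dimmest 10% of probe sets, and the difference of 0.96 had an interval of -1.01 to 2.92. The median deviation of the 16 cardiomyocyte markers from their gene means was also higher in knockout: 0.47, 0.35 and 0.28 on knockout arrays a to c, against 0.16, -0.52 and -0.46 on wildtype arrays a to c. At their probe sets 12 of 16 differed upward and 4 downward, where 47.5% of all genes differ upward. Of the 12, 5 had an unadjusted p under 0.05, where 3.2% of all genes do in that direction, and 0 passed limma's test. The median deviation of the 8 skeletal muscle markers was 0.67, 0.89 and -0.13 on the knockout arrays, against 0.39, -1.88 and -0.19 on the wildtype arrays. Of these markers 7 differed upward and 1 downward, and 0 passed limma's test. The part of either marker list in the value of Rpl3l was not tested. Rpl39l, the paralog of Rpl39 known from male germ cells, read 4.63, 5.98 and 4.50 on the knockout arrays, against 4.29, 5.91 and 6.42 on the wildtype arrays, wider within each group than between them. Rps4l, a paralog of Rps4x, read 8.98, 8.997 and 9.47 on the knockout arrays, against 8.93, 9.11 and 9.75 on the wildtype arrays, again with the letter c highest in both. Of the germ cell markers, Dmc1, a recombinase of meiosis, rose by 2.40 in knockout (limma adjusted p = 0.01395), and 6 of the 8 differed upward. Their part in the values of Rpl39l was not tested.

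Of the remaining like genes, Rpl7l1, the paralog of Rpl7, is a factor of large subunit assembly. It was at 9.48, 9.41 and 9.16 on the knockout arrays, against 9.54, 9.37 and 9.57 on the wildtype arrays, a difference of -0.15 with an interval of -0.40 to 0.11, and all 3 of its probe sets lay below 0. Rps19bp1, which binds Rps19, differed by -0.032.

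Each paralog except Rpl3l was then set against its canonical gene within the same array, which removes the scaling by a constant. Rpl3 is not among the 49 members, so Rpl3l was in no pair. In 5 pairs the log2 value of the paralog minus that of the canonical gene was compared between genotypes by a two-sided exact permutation test, which with 3 against 3 cannot go below p = 0.1. Rps27l minus Rps27 was 6.38, 6.21 and 5.70 on the knockout arrays, against 6.02, 5.62 and 4.74 on the wildtype arrays, a difference of 0.64 that came mostly from the dim Rps27 probe set (exact p = 0.2, Benjamini-Hochberg over 5 pairs 0.625). Rpl22l1 minus Rpl22 was -0.89, -0.72 and -0.74 on the knockout arrays, against -0.70, -0.80 and -0.72 on the wildtype arrays, a difference of -0.043 (exact p = 0.5). The differences were -0.62 for Rpl39l minus Rpl39 (exact p = 0.5), -0.10 for Rps4l minus Rps4x (exact p = 0.7) and -0.15 for Rpl7l1 minus Rpl7 (exact p = 0.3). In no pair were the groups without overlap, and at this size none could have passed.

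Several members were read by more than 1 probe set, which gave a check on single values. Of 23 such genes, 10 had all differences on 1 side of 0. Bright probe sets of 1 gene lay close together: in the 18 genes with several at or above 11, their differences spanned a median of 0.055. The widest span among them was 0.45, in Rps10, where 1 probe set at 11.65 differed by 0.39 and the other bright ones by -0.057 to 0.037. Over all probe sets the median span was 0.19, and the widest were those of Rps4x at 1.38, Rps3 at 1.13, Rpl27a at 0.84, Rps10 at 0.78 and Rps18 at 0.76. In Rps4x, Rps3, Rpl27a and Rps18 the outlying value came from a probe set averaging below 5. Rpl35 was the other gene of 6 probe sets with 1 direction: its differences ran from -0.21 to -0.021, and 2 were without overlap. Of all 104 probe sets annotated to 1 member, 11, or 10.6%, were without overlap, 6 higher and 5 lower. Probe sets of 1 gene are not replicates. The 110 shared probe sets had a median difference of 0.0083, with 68 above and 42 below 0 and none called. The 78 of them at or above 11 differed by -0.12 to 0.17.

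**Figure D3:**
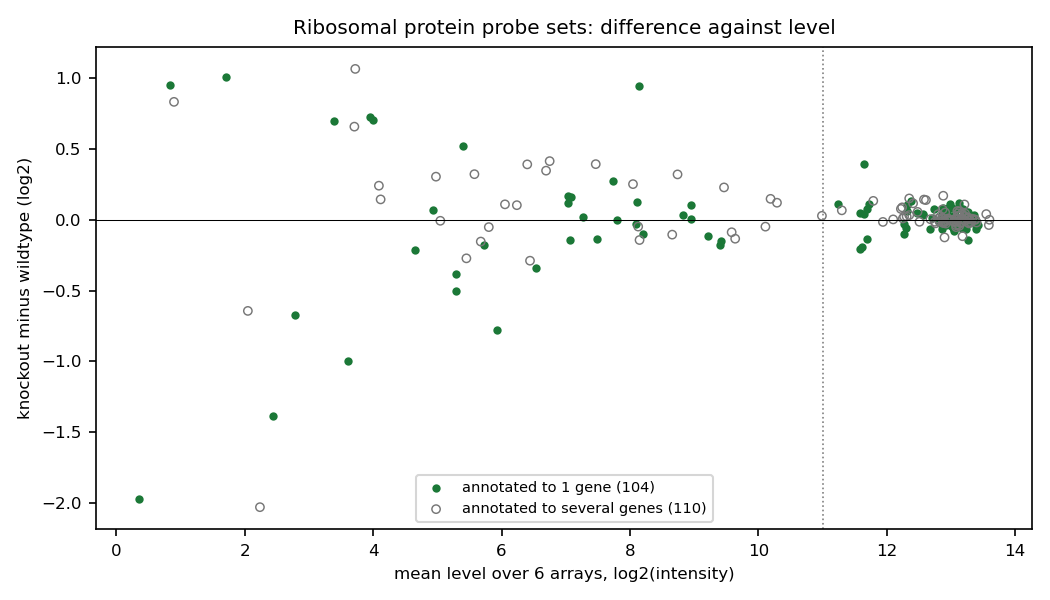
Difference in mean log2 intensity, knockout minus wildtype, against mean log2 intensity, for the 104 probe sets annotated to 1 member (filled) and the 110 annotated to a member and other genes (open). The dotted line marks 11. To its right both kinds lie close to 0, and the differences widen toward the dim end, down to -1.98 in Rps16 among the filled points.

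Single arrays differed by more than the group means. The median deviation of the 49 genes from their own means was -0.043, 0.0012 and 0.023 on knockout arrays a to c, against 0.019, -0.053 and 0.062 on wildtype arrays a to c. Wildtype b was the lowest array for 19 of the 49 genes and the highest for 0, and wildtype c was the highest for 19. Both extremes thus fell within the wildtype group, and the group means of these medians differed by -0.016, with an SD of 0.034 in knockout and 0.058 in wildtype. This order depended on the scaling. The median intensity of the array was lowest in wildtype b, 22.5, and highest in wildtype c, 26.7, and after median centring wildtype b was the highest array for 28 members, with a median deviation of 0.11. With the 75th percentile as the centre it was the highest for 20. The array highest for the largest number of genes was knockout c in the large subunit, 8 of 22, and wildtype c in the small subunit, 9 of 20, and wildtype b was lowest for the largest number in both, 8 and 10.

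**Figure D4:**
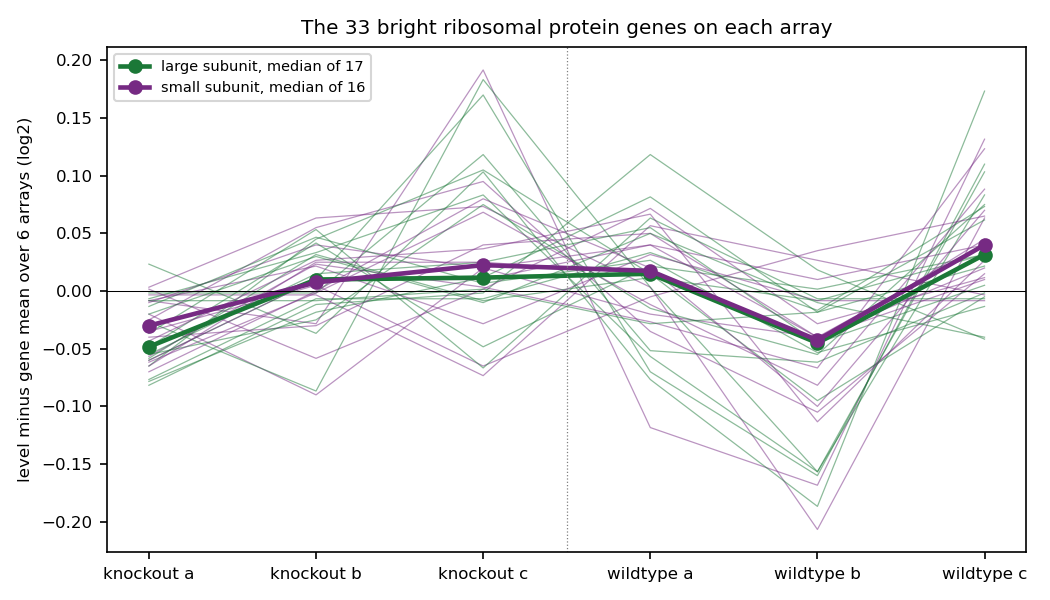
Log2 intensity minus the gene's mean over 6 arrays for the 33 subunit genes at or above 12, on each array, as deposited. Thin lines join the values of 1 gene and thick lines the medians of 17 large and 16 small subunit genes; the order of arrays within a group has no meaning. Both medians are low in knockout a and wildtype b and high in wildtype c.

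Levels of the marker lists differed between arrays by more than the ribosomal proteins did. The median deviation of the 11 erythroid genes was -0.012, 0.16 and -0.46 on knockout arrays a to c, against 0.17, 0.26 and -0.0087 on wildtype arrays a to c. That of the 10 leukocyte genes was -0.067, -0.084 and -0.70 on the knockout arrays, against 0.27, 0.38 and 0.22 on the wildtype arrays, and that of the 11 hepatocyte genes -0.033, -0.059 and -0.028 on the knockout arrays, against 0.17, 0.16 and -0.10 on the wildtype arrays. Knockout c, lowest in the erythroid and leukocyte lists, was the highest array for 12 of the 49 ribosomal protein genes. The part of cell makeup in the members' values was not tested.

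Genes around the cytosolic ribosome were counted from lists of its partners. Of the proteins outside the naming rule, Fau, whose small subunit protein is made as a fusion, differed by 0.077 and Rpsa, a small subunit protein, by -0.0066. Of the 19 Diamond-Blackfan anemia genes 11 were measured, with a median difference of -0.013, and those of smallest p were Rps27, Rps24 and Rps28. Of 15 translation factors with TOP messages 9 differed upward and 6 downward, and 0 passed limma's test. That split was 3 and 12 under median centring and 13 and 2 after quantile normalization. The 2 of smallest p were Eif3f, a subunit of initiation factor eIF3, with a difference of 0.21, and Eef1d, an exchange factor for elongation factor eEF1A, with -0.17. Of 33 genes of ribosome assembly and the nucleolus 13 differed upward and 20 downward, with a median of -0.025, or 0.037 after quantile normalization, and 0 passed. Among them Nhp2, a core protein of the particles that make pseudouridine, differed by -0.25 without overlap (limma adjusted p = 0.5408), and Rrs1, an assembly factor that brings the 5S particle to the large subunit, by 0.21 without overlap. Of 11 RNA polymerase I genes 6 differed upward and 5 downward, or 3 and 8 under median centring, and 0 passed. Polr1e, a subunit of that polymerase, differed by -0.58 and Ubtf, its upstream binding factor, by -0.23, both without overlap. In all, 3 of the 11 genes, or 27.3%, were without overlap, all lower, where the background is 9.04%. Of 8 regulators of ribosomal protein output 7 differed upward and 0 passed, with Eif4ebp1, a translation repressor under mTOR, at 0.30 and Mycn at 0.28. The median of these 8 was 0.12, or 0.046 under median centring.

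Mitochondrial ribosomal proteins, which are nuclear genes of the other ribosome of the cell, had lower means in knockout for most genes. Of 76 genes 68 were below 0, with a median difference of -0.13. At an unadjusted p under 0.05 there were 12, or 15.8%, all lower, where the background is 5.51%, and 0 passed limma's test after adjustment. Groups did not overlap in 19 lower and 1 higher gene, against 9.04% and 6.02% of all genes. Mrpl14, a large subunit protein, read 8.66, 8.94 and 8.50 on the knockout arrays, against 9.07, 9.39 and 9.04 on the wildtype arrays, a difference of -0.47 (limma adjusted p = 0.5536). Mrpl42 differed by -0.30 without overlap. The median was -0.21 under median centring and -0.065, with 53 of 76 below 0, after quantile normalization. Leaving out single arrays moved it from -0.17 without knockout b to -0.078 without wildtype c. Marker lists also had lower means in knockout, in 10 of 11 hepatocyte, 9 of 11 erythroid and 8 of 10 leukocyte genes, with medians of -0.14, -0.24 and -0.51, and their part in the mitochondrial values was not tested. The difference between the 2 kinds of ribosomal protein was not tested, and the mitochondrial genes were less bright, with a median level of 9.15.

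**Figure D5:**
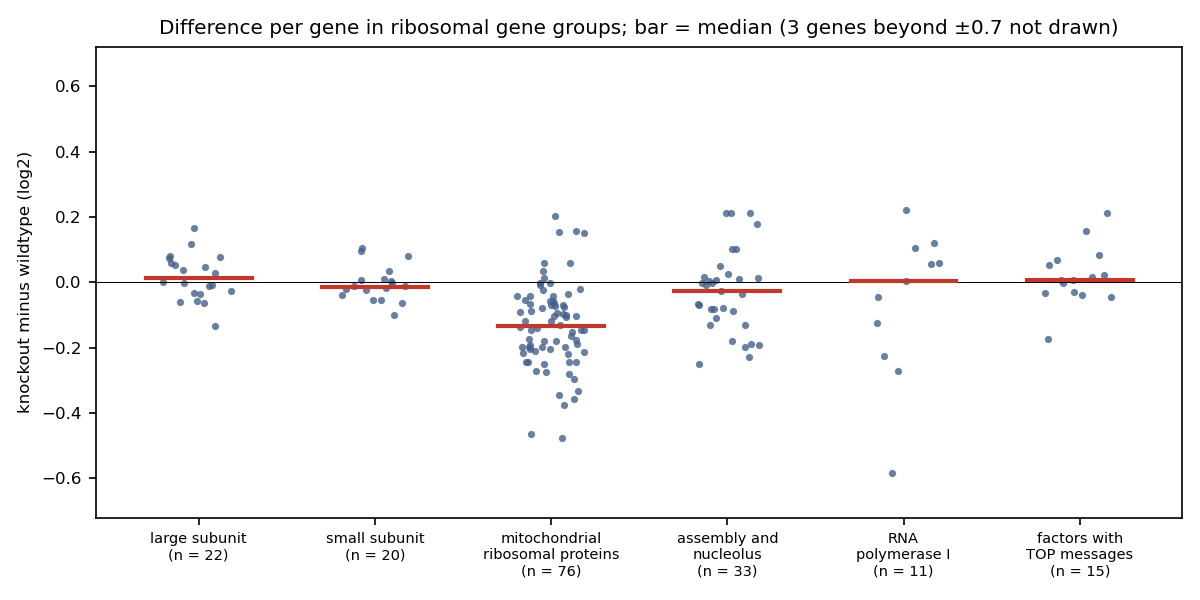
Difference in mean log2 intensity, knockout minus wildtype, of each gene in 6 groups, with the median of the group as a red bar. The 3 genes beyond 0.7 in size are not drawn. Medians lie within 0.03 of 0 except for the 76 mitochondrial ribosomal proteins, whose median is -0.13.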

How the data were processed

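Total RNA was labelled with biotin in 1 cycle and hybridised to Affymetrix mouse expression arrays, per the labels' protocols. The authors deposited 1 intensity per probe set and array, not on a log scale. GCOS and RMA are named in the submitters' processing notes, and the version and role of each are not given in the sources used here. Array medians were 22.5 to 26.7. From these intensities log2 was taken, with no further normalization and no filter on low values.

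The 64 control probe sets were left out and the other 45037 tested with limma 3.58.1 in R 4.3.3 (lmFit, then eBayes with a variance trend on intensity and robust estimation, group as the only term, two-sided, Benjamini-Hochberg over all probe sets). The fit was tested on simulated data. Gene names came from the platform annotation. All 49 member identifiers matched GRCm38.p6. Of 94 symbols there that match the rule, 49 were members and 31 were on shared probe sets only; the others are not analysed here. Members named were the 8 of smallest p per direction, the 4 brightest and 6 dimmest, paralogs with their canonical genes, stalk, 5S and X-linked proteins, the 5 of widest probe set range, and in each other list the 2 genes of smallest p. Rps6, Rpl14, Rps25 and Rpl12 fall outside this rule, and it was not followed in the marker lists. Of the marker genes named, Dmc1 and Alb were among the 2 of smallest p in their lists and the others were not. All of these genes were chosen after their values were seen. The members, lists and the use of the trend were chosen with earlier results of these data known. No sequence of a protein was used here.

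The correlations of the deviations of same-lettered arrays over all probe sets were -0.0070, 0.050 and 0.080 for a, b and c. Those of arrays of unlike letter ran from -0.069 to 0.021, so the values of b and c were above all of them. The letters are not known to pair samples, and they were not taken as pairs in the main fit. Alternatives were 3 other scalings, averaging all probe sets of a gene, probe set filters, 16 units added before log2, no trend, array weights, 1 probe set per gene, the letter as a block and each array left out. Keeping members at 11 or above, and leaving out paralogs and like genes, were added after seeing the data.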

Additional observations from a re-analysis of the deposited data

How the results depend on the processing

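The count of members passing the test was 0 in every alternative run except the letter as a replicate block, where it was 1, Rpl37 (limma adjusted p = 0.00402), among 162 genes called in all. The letters are not known to pair samples. The count without overlap, 2 as deposited, was 8 under median centring (1 higher, 7 lower, where 16.7% of all genes do not overlap). It was 5 under 75th percentile centring (3 higher, 2 lower, 14.8%) and 5 after quantile normalization (3 higher, 2 lower, 14.9%). Without _x_at and _s_at probe sets it was 4 of 44 members (2 higher, 2 lower), where 15% of all genes do not overlap. With only members at 11 or above it was 1 of 35, and with paralogs and like genes left out 1 of 42. In both of these settings the share of all genes was 15.1%. Leaving out 1 array gave 5 (without knockout c) to 13 (without wildtype c), where 23.1% to 29.8% of all genes do not overlap. It was 6 without knockout a or wildtype a, and 11 without knockout b or wildtype b. Median centring moved the median difference to -0.087 over all members, -0.062 over the large and -0.091 over the small subunit. Rpl22l1 minus Rpl22 turned to 0.0053 after quantile normalization and ran from -0.074 to 0.0083 with 1 array left out, turning without knockout a. Rps4l minus Rps4x turned to 0.58 with the mean of all probe sets and ran from -0.28 to 0.12, turning without wildtype c. Median centring shifts the difference of every gene by the same amount. The mean of all probe sets brings in a dim Rps4x probe set, averaging 2.435, with a difference of -1.39. The cause of the other moves was not tested. Of 19 named members under 324 alternatives in all, the replicate block not among them, 0 calls changed and 4 members changed sign, with a smallest adjusted p of 0.2528. Signal near the bottom of the scale limits Rps16 and Rpl3l, whose sizes are not exact.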
